A study of Mus musculus with 14 samples.

Results

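Cytochromes P450 are heme enzymes that insert an oxygen atom into drugs, plant compounds, fatty acids, steroids, bile acids and vitamins. They were studied here in duodenal tumors of mice without Lrig1, a membrane protein that restrains growth factor receptors of the ErbB family. The family was taken as every array feature whose single gene symbol is Cyp followed by a number and a letter, or Cyp51, without symbols ending in -ps. That rule found 85 genes among the 19938 genes measured, each read by 1 feature. The rule itself uses symbols and no measured value, but the family was chosen with earlier results of these data known. A further 7 features carry several Cyp symbols at once and are described apart, and 2 pseudogene features were left out. Cyp2d13, which the annotation lists as a transcribed pseudogene, stayed a member by its symbol.

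In the small intestine the P450 enzymes lie mostly in enterocytes, where they act on food and drug compounds before these reach the blood. Families 1, 2 and 3 handle foreign compounds, and many of their genes are switched on by ligand-activated receptors: Ahr for Cyp1a1, Nr1i2 (PXR) for Cyp3a11 and Nr1i3 (CAR) for Cyp2b10. Family 4 hydroxylates fatty acids and eicosanoids. The remaining families make or break down sterols, steroid hormones, bile acids, vitamin D and retinoic acid.

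Total RNA of 14 samples from the proximal duodenum was read on Affymetrix Mouse Gene 1.0 ST arrays, 1 array a sample. The mice were of mixed 129S7/SvEv and C57/BL6 background and age matched, with no age given. Wildtype duodenum came from 3 mice, tumors from 6 mice with the genotype Lrig1-CreERT2/CreERT2 (Lrig1-/-), and adjacent normal duodenum from 5 of these 6. Here the CreERT2 insertion disrupts both copies of Lrig1, and no agent that activates the Cre is named. Tumor replicate 1 has no adjacent array. The labels call the non-tumor tissue epithelium. Values are log2 signals as deposited, so a difference of 1 is 2-fold. They give no level of one gene against another, since probes differ. Array medians ran from 7.11 to 7.29. No detection call accompanies the values, and the number of arrays limits the precision. In tumor against wildtype tissue, genotype and tissue state differ together.

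Lrig1 itself read 8.22 to 9.54 in wildtype, 6.95 to 7.40 in adjacent and 7.65 to 8.54 in tumor arrays, so null tissue retained signal and tumors overlapped wildtype. Wildtype replicate 1 stood apart from the other wildtype arrays. Its Lrig1 signal, 9.54, was the highest of all 14 arrays. Its mean over 6 gastric pit cell markers was 13.40, against 6.73 and 7.17 in the other 2, 6.11 to 8.19 in adjacent tissue and 12.31 to 13.85 in tumors. Its mean over 8 mast cell markers was 8.36, against 6.20 and 5.97, with 7.98 to 8.98 in tumors. Whether this sample is labelled correctly could not be settled from these values, which bears on every comparison with wildtype. Pancreatic acinar transcripts, measured by 10 markers, averaged 13.37 to 14.10 in wildtype replicates 1 and 3 and adjacent replicates 1 and 2, 7.49 to 7.65 in the other non-tumor arrays and 7.51 to 10.01 in tumors. Of the hepatocyte markers, Alb read 6.81 ± 0.26 (SD, n = 3) in wildtype and 6.88 ± 0.54 (n = 6) in tumor arrays. The mean over 11 hepatocyte markers was 6.33 to 7.002 across arrays. Ttr and Arg1 were the 2 of 11 that rose in tumors against adjacent tissue, where 19.1% of all genes rose. Ttr, the transthyretin gene, was not low: it read 7.56 to 9.87 in wildtype, 7.24 to 9.69 in adjacent and 10.73 to 11.80 in tumor arrays.

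Nearly all P450 genes that fell in tumors belong to the families that handle foreign compounds and fatty acids. In families 1 to 4 without Cyp2r1, 31 of 67 members fell, 1 rose and 35 did not pass against adjacent tissue. Of the other 18 members, which include Cyp2r1 for its vitamin D role, 1 fell and 3 rose. In all, 32 of the 85 genes fell (37.6%, where 12.6% of all genes fell) and 4 rose (4.71%, where 19.1% of all genes rose). The fall was at least 2-fold for 21 genes (24.7%, against 3.07% of all genes) and the rise for 2, where 3.3% of all genes rose that far. Cyp2b10 fell most, by a log2 change of -5.05, followed by Cyp3a11, Cyp3a25, Cyp2c55 and Cyp2c29. The 4 that rose were Cyp20a1, Cyp51, Cyp21a1 and Cyp2w1. The median log2 change over the 85 genes was -0.21, against 0.043 over all genes. Calls are limma tests at an adjusted p of 0.05, Benjamini-Hochberg adjusted over 19938 genes, from a fit of the 14 arrays with the mouse as a block.

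Most of the genes that fell did so in every mouse. All 6 tumors lay below all 5 adjacent arrays for 23 genes (6.84% of all genes did so), and above them for 2, Cyp20a1 and Cyp21a1 (10.3% of all genes). In each of the 5 mice with both tissues 33 P450 genes were lower in the tumor (13.3% of all genes), and 29 of the 32 that fell were among them. Many members were dim: 46 had a mean below 7 in every group. Of those 46, 7 passed, and the largest of their changes was -1.79, for Cyp2c38. The share of all equally dim genes that passed was not counted. The 49 members that did not pass had log2 changes from -0.90 for Cyp2e1 to 0.66 for Cyp4f39.

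Markers of absorptive enterocytes moved with these genes. Of 14 measured, 13 fell in tumors against adjacent tissue, where 12.6% of all genes fell and 19.1% rose. The median log2 change of the list was -2.29. Only Alpi did not pass, at 0.08 ± 0.09 (SE), adjusted p = 0.55. The mean signal of the list was 10.69 to 11.21 in tumors, 12.90 to 13.64 in adjacent and 12.31 to 13.50 in wildtype arrays. Gastric pit markers rose for 6 of 6, mast cell markers for 6 of 8 and fibroblast markers for 6 of 8, while 5 of 8 macrophage markers fell and 1 rose. The part of this shift in the P450 changes was not tested, and in bulk RNA fewer cells of a type and less RNA per cell cannot be told apart.

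**Figure D1:**
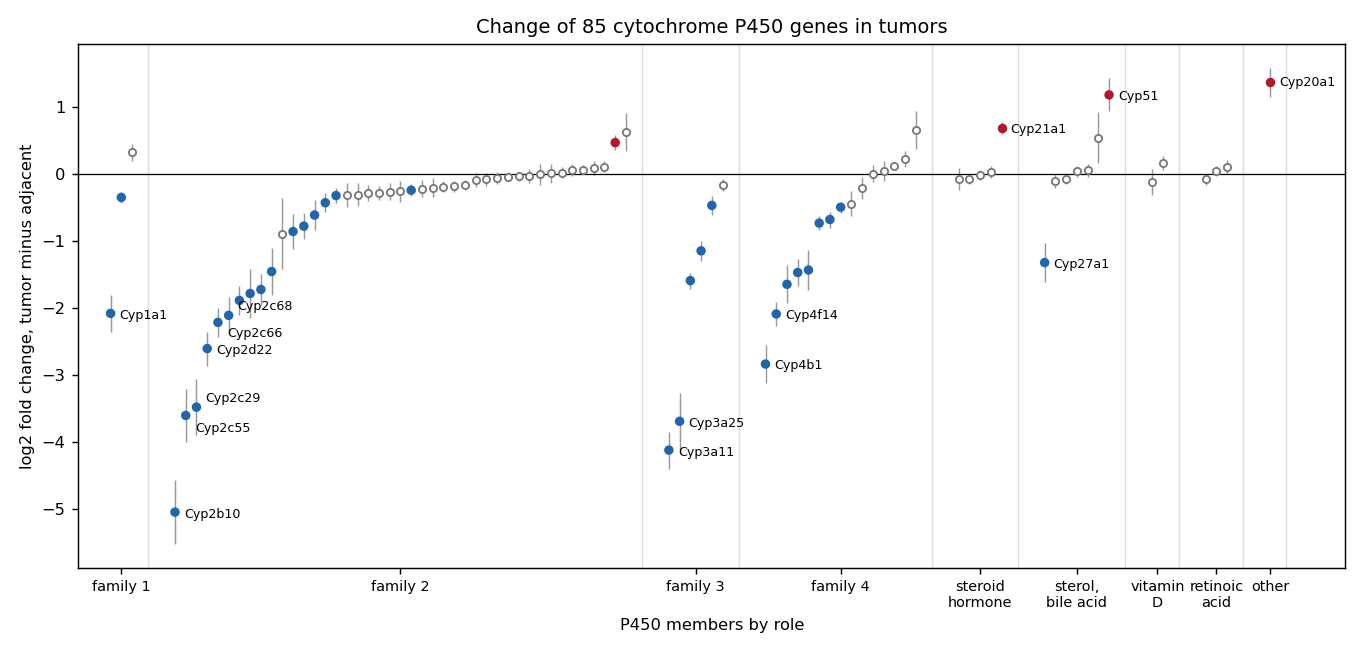
Each point is 1 of the 85 P450 genes, placed by role along the horizontal axis and by its log2 fold change (tumor minus adjacent) on the vertical axis, with the standard error as a line. Filled blue points fell, filled red points rose, open points did not pass an adjusted p of 0.05; Cyp2b10 lies lowest at -5.05 and Cyp20a1 highest at 1.37.

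In family 3, the drug-metabolising Cyp3a enzymes, 5 of 6 members fell, where 12.6% of all genes fell. Cyp3a11 is an intestinal Cyp3a enzyme that oxidises many drugs. Its signal was 12.51, 12.75 and 12.91 in the wildtype arrays, 12.42, 12.50, 12.44, 12.84 and 12.51 in the adjacent arrays, and 7.45 to 9.75 with a median of 8.69 in the tumors. Every tumor was thus far below every non-tumor array, which lay within a narrow band. The log2 change was -4.13 ± 0.28 (SE), adjusted p = 3.23e-07, a 17.5-fold lower signal.

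Cyp3a25, a related drug and steroid hydroxylase, read 9.68, 13.07 and 12.20 in wildtype, 11.96, 11.89, 12.88, 13.19 and 12.95 in adjacent tissue and 8.12 to 9.77 with a median of 8.92 in tumors. It fell by 3.70 ± 0.42 (SE), adjusted p = 1.44e-05. Wildtype replicate 1 lay within the tumor range, and the other 2 wildtype arrays lay well above it. Cyp3a44 fell from 7.81 ± 0.31 (SD, n = 5) to 6.21 ± 0.25 (n = 6) and Cyp3a13 from 13.05 ± 0.18 to 11.94 ± 0.39. Cyp3a57 was dim and fell by 0.47, and Cyp3a16, also dim, changed by -0.17 without passing. Members of this group are close in sequence, and probes may be shared between copies.

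Family 2 without Cyp2r1 had 43 members, of which 16 fell, 1 rose and 26 did not pass. Of all genes 12.6% fell and 19.1% rose. Cyp2b10, the classic target of Nr1i3, read 9.19, 13.09 and 12.72 in wildtype, 11.86, 13.04, 13.35, 13.63 and 13.00 in adjacent tissue and 7.47 to 8.81 with a median of 7.64 in tumors. Tumors did not overlap either normal group, and wildtype replicate 1 was the lowest normal array by a wide margin. The log2 change against adjacent tissue was -5.05 ± 0.47 (SE), adjusted p = 3.13e-06, or 33.2-fold lower.

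Cyp2c66, an intestinal enzyme of the arachidonic acid-oxidising Cyp2c group, read 12.67, 13.02 and 12.50 in wildtype, 12.69, 13.55, 12.35, 12.66 and 12.50 in adjacent tissue and 9.94 to 11.34 with a median of 10.40 in tumors. Groups did not overlap, and the 3 tumors from mice whose ID starts with B (9.94 to 10.08) were lower than the 3 whose ID starts with F (10.72 to 11.34). The labels do not say what the letter stands for. Of the P450 genes picked by the naming rule given below, Cyp2c55, Cyp4b1, Cyp2d22, Cyp2c68 and Cyp4f14 split by letter in the same direction. Cyp2w1 split in the other direction. Some gaps were small: for Cyp4f14 the lowest letter F tumor read 10.89 and the highest letter B tumor 10.88. How many of all genes split by letter was not counted, so these splits are not a trait of the family. In a limma interaction term, the difference in Cyp2c66 change between letters did not pass (adjusted p = 0.534). Against adjacent tissue the log2 change was -2.22 ± 0.22 (SE), adjusted p = 4.87e-06.

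Cyp2c55, which hydroxylates arachidonic acid, read 8.28, 10.78 and 7.37 in wildtype, 8.38, 9.89, 9.89, 9.39 and 8.69 in adjacent tissue and 5.31 to 6.19 with a median of 5.56 in tumors. Cyp2c29, an epoxygenase, read 9.42, 9.96 and 7.27 in wildtype, 7.63, 10.53, 8.92, 10.10 and 9.56 in adjacent tissue and 5.66 to 6.05 with a median of 5.85 in tumors. For both genes normal tissue varied widely and every tumor lay below it. The log2 changes against adjacent tissue were -3.61 ± 0.40 (SE), adjusted p = 1.07e-05 for Cyp2c55 and -3.48 ± 0.42 (SE), adjusted p = 2.25e-05 for Cyp2c29.

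Cyp2d22, a drug hydroxylase, read 10.11, 11.72 and 10.93 in wildtype, 10.46, 11.28, 11.49, 11.96 and 11.67 in adjacent tissue and 8.36 to 9.08 with a median of 8.82 in tumors, a log2 change of -2.61 ± 0.25 (SE), adjusted p = 4.27e-06. Cyp2c68 read 9.12, 9.72 and 9.02 in wildtype, 10.54, 9.86, 10.36, 10.53 and 8.995 in adjacent tissue and 7.39 to 9.10 with a median of 7.74 in tumors, a log2 change of -2.11 ± 0.28 (SE), adjusted p = 4.40e-05. Cyp2d22 groups did not overlap, whereas the highest Cyp2c68 tumor, replicate 1, exceeded the lowest adjacent array.

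Smaller falls in family 2 ran from -1.89 for Cyp2d26 to -0.24 for Cyp2b13. They took in Cyp2c38 (-1.79), Cyp2c67 (-1.73), the fatty acid hydroxylase gene Cyp2u1 (-1.46), Cyp2c23 (-0.86), Cyp2j9 (-0.78), Cyp2j6 (-0.61), Cyp2c65 (-0.43) and Cyp2c70 (-0.32). Cyp2w1, known for its signal in fetal gut and colorectal tumors, was the member that rose. It read 6.83, 6.99 and 7.52 in wildtype, 6.90, 7.01, 6.92, 6.70 and 7.21 in adjacent tissue and 7.15 to 7.68 with a median of 7.39 in tumors, so the ranges overlapped. Its log2 change was 0.47 ± 0.11 (SE), adjusted p = 0.00397.

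Not every bright member fell. Cyp2s1, an epithelial enzyme, had a mean of 11.24 ± 0.34 (SD, n = 5) in adjacent tissue and 11.85 ± 0.76 (n = 6) in tumors, with a log2 change of 0.63 ± 0.29 (SE), adjusted p = 0.116. The ethanol-oxidising Cyp2e1 varied within each group, at 7.24 ± 1.33 and 6.31 ± 0.97, and its change of -0.90 did not pass.

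Family 1 answers to the aryl hydrocarbon receptor. Cyp1a1 read 8.08, 7.73 and 8.47 in wildtype, 6.83, 9.05, 8.64, 9.31 and 8.46 in adjacent tissue and 6.05 to 6.60 with a median of 6.36 in tumors. Adjacent replicate 1 was by far the lowest normal array and still above the highest tumor. The log2 change was -2.08 ± 0.27 (SE), adjusted p = 4.44e-05. Cyp1a2, dim in all arrays, fell by 0.35, and Cyp1b1, with a change of 0.33 ± 0.13 (SE), adjusted p = 0.0715, did not pass.

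Family 4 had 15 members, of which 8 fell and none rose, where 12.6% of all genes fell and 19.1% rose. Cyp4b1, which hydroxylates fatty acids and activates some toxins, read 9.10, 11.37 and 10.97 in wildtype, 10.81, 11.57, 11.04, 11.71 and 10.95 in adjacent tissue and 7.76 to 8.72 with a median of 8.49 in tumors. Cyp4f14, an enzyme of vitamin E and leukotriene breakdown, read 12.48, 13.19 and 12.73 in wildtype, 12.78, 12.91, 13.35, 13.44 and 13.07 in adjacent tissue and 10.68 to 11.68 with a median of 10.89 in tumors. Tumors lay below all normal arrays for both. The log2 changes against adjacent tissue were -2.84 ± 0.29 (SE), adjusted p = 5.47e-06 for Cyp4b1 and -2.09 ± 0.18 (SE), adjusted p = 1.58e-06 for Cyp4f14.

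The Ppara target Cyp4a10, a fatty acid omega-hydroxylase gene, fell by 1.65, its neighbour Cyp4a31 by 1.44, Cyp4f16 by 1.47, Cyp4f13 by 0.73, Cyp4f18 by 0.68 and Cyp4f37 by 0.50. Cyp4f39, which makes skin barrier lipids, did not pass at 0.66 ± 0.28 (SE), adjusted p = 0.0944, with tumor replicates 3 and 5 (9.10 and 8.53) above the other 4. Cyp4a14, the other well-known Ppara target of the family, was dim and did not pass (0.23).

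Among the 7 genes of sterol and bile acid metabolism, 1 rose, 1 fell and 5 did not pass. These counts are near the shares of all genes, of which 19.1% rose and 12.6% fell. Cyp51, the lanosterol demethylase of cholesterol synthesis, read 9.72, 8.19 and 8.27 in wildtype, 9.505, 7.90, 8.62, 8.59 and 8.36 in adjacent tissue and 9.28 to 10.19 with a median of 9.86 in tumors. It rose in 5 of 5 mice by a log2 change of 1.18 ± 0.25 (SE), adjusted p = 0.00181, although adjacent replicate 1 and wildtype replicate 1 lay within the tumor range. Cyp27a1, the mitochondrial sterol hydroxylase, read 8.50, 10.66 and 9.82 in wildtype, 9.98, 9.82, 10.67, 11.31 and 10.84 in adjacent tissue and 8.71 to 9.49 with a median of 9.33 in tumors, a log2 change of -1.32 ± 0.28 (SE), adjusted p = 0.00222. Tumors lay below every adjacent array, while wildtype replicate 1 was lower than all of them. Cyp39a1, an oxysterol hydroxylase gene, did not pass at 0.54 ± 0.38 (SE), adjusted p = 0.326. The liver bile acid genes Cyp7a1 and Cyp8b1 were dim, with changes of 0.04 and -0.07.

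Steroid hormone synthesis had 5 members and 1 call, a rise. Of all genes 19.1% rose, so 1 of 5 is near that share. Cyp21a1, the steroid hydroxylase of adrenal hormone synthesis, read 6.74, 6.72 and 6.72 in wildtype, 6.58, 6.59, 6.75, 6.50 and 6.72 in adjacent tissue and 6.95 to 7.67 with a median of 7.28 in tumors, with no overlap and a log2 change of 0.69 ± 0.09 (SE), adjusted p = 3.63e-05. Steroidogenic cell markers had list means of 6.04 to 6.32 in all arrays. Star read 6.62 ± 0.10 (n = 5) in adjacent and 6.59 ± 0.13 (n = 6) in tumor arrays. Of these 5 markers 1 fell, where 12.6% of all genes fell. It was Fdx1, at 7.95 ± 0.20 in adjacent and 7.59 ± 0.10 in tumor arrays, a log2 change of -0.37 ± 0.08 (SE), adjusted p = 0.00307. Cyp11a1, the first enzyme of the pathway, changed by 0.03 without passing. Cyp20a1, an enzyme with no settled substrate, rose most of all members. It read 9.34, 7.74 and 7.73 in wildtype, 8.08, 8.38, 8.08, 7.81 and 8.02 in adjacent tissue and 9.09 to 9.89 with a median of 9.35 in tumors, a log2 change of 1.37 ± 0.22 (SE), adjusted p = 2.20e-04. Wildtype replicate 1 again read like a tumor.

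The 2 vitamin D and 3 retinoic acid enzymes gave no call, where 31.7% of all genes passed. Cyp27b1, which makes active vitamin D, read 6.28, 6.57 and 6.50 in wildtype, 6.06, 6.41, 6.20, 6.34 and 6.53 in adjacent tissue and 6.22 to 6.86 with a median of 6.43 in tumors, with a log2 change of 0.17 ± 0.10 (SE), adjusted p = 0.256. Cyp26c1, a retinoic acid hydroxylase gene, read 6.49, 6.85 and 7.19 in wildtype, 6.66, 6.62, 6.66, 6.52 and 7.04 in adjacent tissue and 6.53 to 6.98 with a median of 6.77 in tumors, with a change of 0.10 ± 0.11 (SE), adjusted p = 0.555. Groups overlapped for both. Cyp2r1 changed by -0.12, Cyp26a1 by 0.04 and Cyp26b1 by -0.08, none of which passed.

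**Figure D2:**
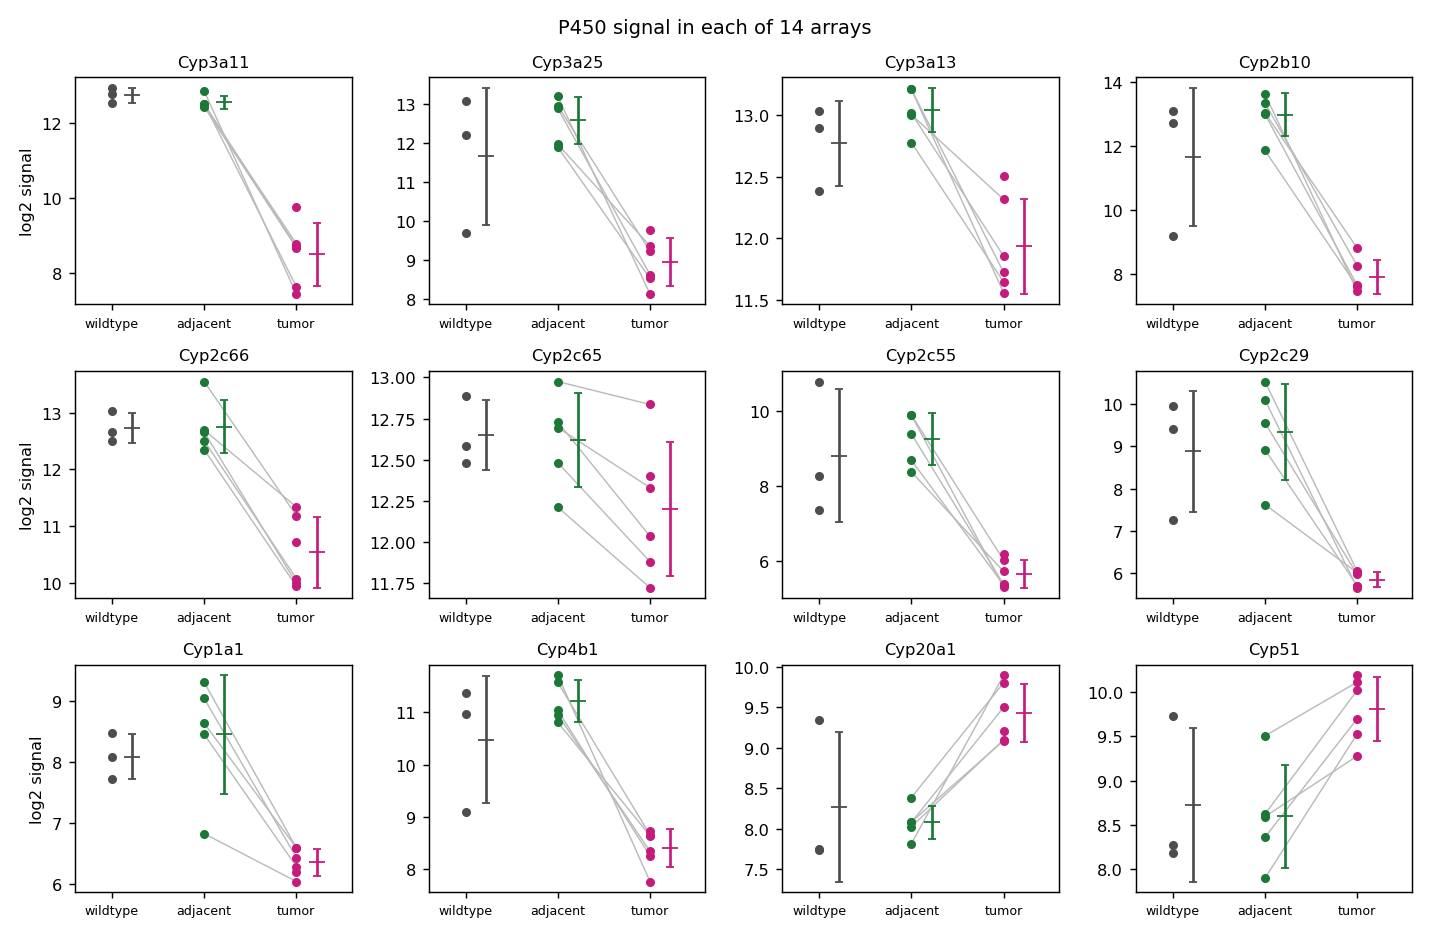
Log2 signal of 12 P450 genes in each of the 14 arrays; points are arrays, grey lines join adjacent tissue and tumor of 1 mouse, and bars beside the points give the mean and SD of 3 wildtype, 5 adjacent and 6 tumor arrays. Tumors lie below every normal array for Cyp3a11, Cyp2b10 and Cyp2c66, and a single wildtype array, replicate 1, is low for Cyp2b10, Cyp3a25 and Cyp4b1 and high for Cyp20a1 and Cyp51.

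**Figure D3:**
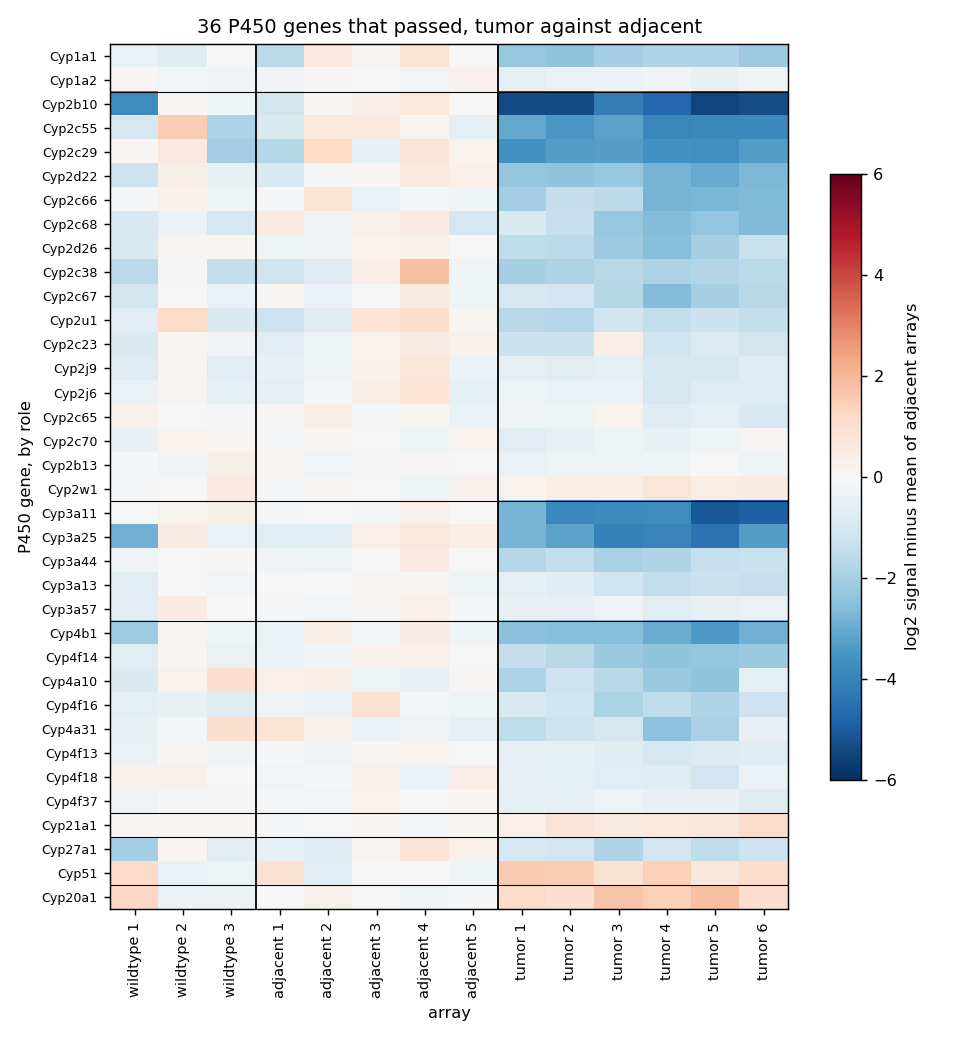
Log2 signal minus the mean of the adjacent arrays for the 36 P450 genes that passed in tumor against adjacent tissue, one row a gene grouped by role and one column an array; blue is lower and red higher. Tumor columns are blue for 32 genes on average and red for 4, and the column of wildtype replicate 1 is darker blue than the other wildtype columns for Cyp2b10, Cyp3a25, Cyp4b1 and Cyp27a1.

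P450 genes often sit in tandem clusters of related copies, so neighbours were set side by side. Of all genes 12.6% fell and 19.1% rose against adjacent tissue. In the Cyp2c cluster 8 of 12 members fell, with log2 changes from -3.61 for Cyp2c55 to 0.06 for Cyp2c37. In the Cyp3a cluster 4 of 5 fell, all but Cyp3a16. Cyp2b10 fell by 5.05, while its neighbours Cyp2b13, Cyp2b9 and Cyp2s1 changed by -0.24, -0.32 and 0.63. Of the 8 protein-coding Cyp2d members Cyp2d22 and Cyp2d26 fell, the genes at either end of the cluster; the pseudogene Cyp2d13 did not pass (-0.28, adjusted p = 0.0547). Of the 7 members from Cyp4f39 to Cyp4f13, 4 fell, and of the 7 around Cyp4a10, 3 fell. A separate run of 7 family 2 genes from Cyp2b23 to Cyp2t4 had no call, all with dim signals. Gene order is that of the GRCm38.p6 annotation, with at most 5 other protein-coding genes between neighbours.

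**Figure D4:**
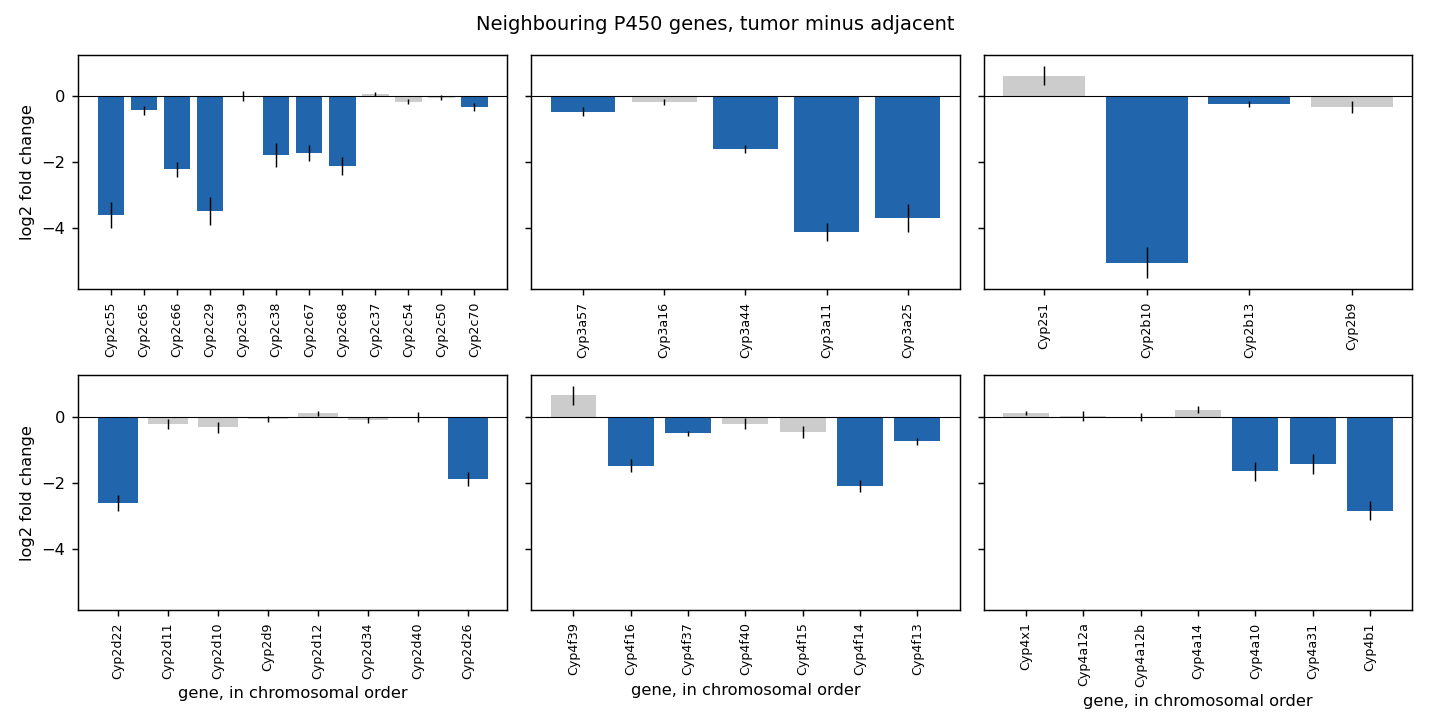
Log2 fold change (tumor minus adjacent) of P450 genes in 6 clusters, each drawn in chromosomal order, with bars starting at 0 and the standard error as a line; blue bars passed an adjusted p of 0.05 and grey bars did not. Neighbours differ in size: Cyp2c66 fell by 2.22 beside Cyp2c65 at -0.43, and Cyp2b10 by 5.05 beside Cyp2b13 at -0.24.

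Cyp2c65 and Cyp2c66 are neighbouring copies with high signals in normal tissue. Cyp2c65 read 12.89, 12.58 and 12.48 in wildtype, 12.70, 12.97, 12.48, 12.73 and 12.21 in adjacent tissue and 11.72 to 12.84 with a median of 12.18 in tumors, where tumor and normal ranges overlapped, and its log2 change was -0.43 ± 0.14 (SE), adjusted p = 0.0311. The tumor-minus-adjacent change of Cyp2c66 was lower than that of Cyp2c65 in 5 of 5 mice, by 0.99 to 2.22 on the log2 scale. This difference is a description, since the pair was picked for it. The 250 bases before their start sites are shown to compare them, 5′ to 3′ on the gene's strand, from RefSeq on GRCm38.p6. The capitals mark CAAAGTCC, the core of a site bound by Hnf4a. Cyp2c65 covers chr19:39060756-39061005 (+) and Cyp2c66 chr19:39113648-39113897 (+).
Cyp2c65: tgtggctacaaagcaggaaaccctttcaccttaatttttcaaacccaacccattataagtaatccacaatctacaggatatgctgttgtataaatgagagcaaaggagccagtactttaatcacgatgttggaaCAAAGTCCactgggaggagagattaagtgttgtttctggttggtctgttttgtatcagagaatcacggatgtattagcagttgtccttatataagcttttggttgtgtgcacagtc
Cyp2c66: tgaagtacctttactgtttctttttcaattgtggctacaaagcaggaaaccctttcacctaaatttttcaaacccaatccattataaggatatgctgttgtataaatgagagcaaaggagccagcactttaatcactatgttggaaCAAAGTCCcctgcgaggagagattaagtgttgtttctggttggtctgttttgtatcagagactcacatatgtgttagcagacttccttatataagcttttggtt
These stretches were identical at 208 of 221 bases aligned without a gap (94.1%). The core lies 116 to 109 bases before the Cyp2c65 start and 104 to 97 bases before the Cyp2c66 start. Array probes of such close copies may read each other's transcripts.

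The Cyp3a11 upstream stretch is shown because its gene gave the smallest adjusted p of the family. It covers chr5:145879855-145880104 (-) and holds the same core, in capitals, 109 to 102 bases before the start.
Cyp3a11: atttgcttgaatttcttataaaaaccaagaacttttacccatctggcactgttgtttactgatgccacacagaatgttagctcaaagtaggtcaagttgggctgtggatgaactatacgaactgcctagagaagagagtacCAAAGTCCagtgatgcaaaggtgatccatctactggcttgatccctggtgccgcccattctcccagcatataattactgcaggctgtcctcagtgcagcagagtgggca
CAAAGTCC, on either strand, occurred in 9 of the 64 members with a sequence in the table (14.1%) and in 1.38% of all 27025 genes. The longer CAAAGTCCA, which contains it, occurred in 7 members (10.9%) and in 0.451% of all genes. Of the 9 members, 5 belong to the Cyp2c cluster and 2 to the Cyp3a cluster, so they share ancestry and are not independent. They include Cyp2c70, which fell by 0.32, and Cyp3a16 and Cyp8b1, which did not pass. Both forms were picked after the sequences were seen. Hnf4a itself read 12.93 ± 0.12 (SD, n = 5) in adjacent and 12.93 ± 0.15 (n = 6) in tumor arrays, a log2 change of -0.01 ± 0.07 (SE), adjusted p = 0.944.

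Cyp1a1 is shown for the short string GCGTG, and Cyp51 for an element its promoter is known for. In Cyp1a1, chr9:57697363-57697612 (+), the capitals mark GCGTG, 54 to 50 bases before the start. These letters are the core of the element bound by Ahr and Arnt, but whether this copy is such an element was not tested. In Cyp51, chr5:4104698-4104947 (-), the capitals mark TCACCTCA, the middle of its sterol regulatory element, 88 to 81 bases before the start.
Cyp1a1: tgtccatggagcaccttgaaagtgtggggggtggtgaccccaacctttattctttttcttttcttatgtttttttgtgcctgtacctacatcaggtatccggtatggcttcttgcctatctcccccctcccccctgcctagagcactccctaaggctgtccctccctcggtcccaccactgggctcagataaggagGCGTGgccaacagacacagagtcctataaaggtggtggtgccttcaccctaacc
Cyp51: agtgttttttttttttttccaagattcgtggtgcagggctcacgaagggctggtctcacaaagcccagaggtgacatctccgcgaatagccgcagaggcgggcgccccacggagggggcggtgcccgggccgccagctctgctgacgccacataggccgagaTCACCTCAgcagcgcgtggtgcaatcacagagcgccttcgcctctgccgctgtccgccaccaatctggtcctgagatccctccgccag
GCGTG, on either strand, occurred in 15 of 64 members (23.4%) and in 30.9% of all genes. TCACCTCA, picked after the sequences were seen, occurred in 2 of 64 members (3.12%) and 1.12% of all genes. The pair AGTTCA and AGTTCA spaced by 3 or 4 bases, one form of the element bound by Nr1i2 and Nr1i3, occurred in 0 of 64 members. In all genes it was found in 0 at spacing 3 and in 0.0111% at spacing 4. A match is a description of these 250 bases, and distant enhancers were not read.

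Of 17 measured receptors and regulators of P450 induction, 9 fell and 1 rose, with a median log2 change of -0.25. Of all genes 12.6% fell and 19.1% rose. Nr1i3, the receptor behind Cyp2b10 induction, read 9.02, 10.87 and 10.51 in wildtype, 9.997, 9.85, 10.88, 11.14 and 10.57 in adjacent tissue and 7.79 to 8.81 with a median of 8.68 in tumors. It fell by 1.97 ± 0.26 (SE), adjusted p = 5.09e-05. The oxysterol receptor Nr1h3 (LXR alpha) fell by 1.41 ± 0.22 (SE), adjusted p = 1.60e-04, the fatty acid receptor Ppara by 1.08 ± 0.24 (SE), adjusted p = 0.00284, and Nr1i2, which controls Cyp3a11, by 0.95 ± 0.16 (SE), adjusted p = 3.30e-04. Tumors lay below all adjacent arrays for each of these 4. The bile acid pathway repressor Nr0b2 fell by 0.75. Rarg, a retinoic acid receptor, was the one that rose, by 0.73 ± 0.10 (SE), adjusted p = 3.93e-05. Ahr did not pass (0.20 ± 0.11 (SE), adjusted p = 0.193), while its repressor and target Ahrr fell by 0.63.

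Genes for partner proteins were read as well. The list of electron donors, heme supply and heme breakdown had 18 genes, of which 15 were measured. The reductase gene Por is not among the 15. Of these, 7 fell and 3 rose, none by 2-fold, with a median of -0.28. Of all genes 12.6% fell and 19.1% rose, so the 3 that rose are near the share of all genes. The P450-binding protein Pgrmc1 fell by 0.80 ± 0.12 (SE), adjusted p = 1.95e-04, Pgrmc2 by 0.64 and the electron donor Cyb5a by 0.53. Heme-degrading Hmox1 rose by 0.94 ± 0.15 (SE), adjusted p = 2.18e-04, and Blvrb, which acts after it, by 0.65. Alas1, the first enzyme of heme synthesis, rose by 0.20. Of the enzymes of other phase I reactions, 16 of 21 fell and none rose, with a median of -1.50, where 12.6% of all genes fell. Maoa, which oxidises amines, fell by 3.82 ± 0.31 (SE), adjusted p = 1.15e-06. The log2 change was -2.94 for its relative Maob, -2.51 for the alcohol dehydrogenase gene Adh4, -2.23 for the flavin monooxygenase gene Fmo4 and -2.09 for the retinal dehydrogenase gene Aldh1a1. Of the P450 enzymes without a Cyp symbol, Ptgis (prostacyclin synthase, -0.13) and Tbxas1 (thromboxane synthase, -0.27) did not pass.

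**Figure D5:**
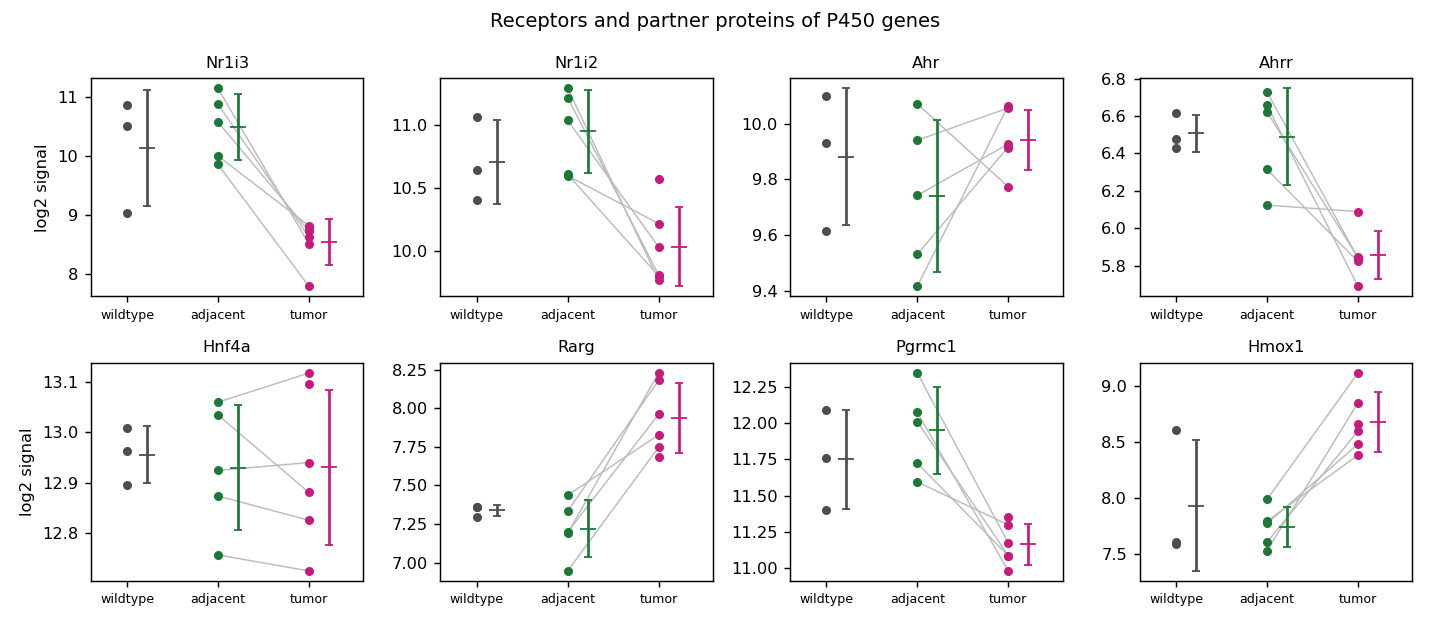
Log2 signal of 6 receptors and regulators and 2 partner genes in each of the 14 arrays; points are arrays, grey lines join adjacent tissue and tumor of 1 mouse, and bars give the mean and SD of 3 wildtype, 5 adjacent and 6 tumor arrays. Nr1i3, Nr1i2, Ahrr and Pgrmc1 are lower in tumors, Rarg and Hmox1 higher, and Ahr and Hnf4a overlap between groups.

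Features with several Cyp symbols were not tested, and their values are differences of group means. The feature for Cyp3a59, Cyp3a57 and Cyp3a25 had a tumor-minus-adjacent difference of -3.99 on the log2 scale. The difference was -2.82 for Cyp3a41b, Cyp3a44 and Cyp3a41a, and -2.69 for the feature naming Cyp3a11 as well. Those of Cyp4v3 with Klkb1, of Cyp4a32, Cyp4a31 and Cyp4a10, and of 4 Cyp2c genes had differences of -2.26, -1.95 and -1.68. For each of these 6 the tumors lay below every adjacent array. The feature of Cyp2a5 and Cyp2a4 differed by -0.14 and was lower in 3 of 5 mice.

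Against wildtype duodenum 21 of 85 P450 genes passed: 19 fell (4.48% of all genes fell) and 2, Cyp20a1 and Cyp21a1, rose (9.65% of all genes rose). The fall was at least 2-fold for 16 genes, where 1.7% of all genes fell that far, and the rise for 1, Cyp20a1 (2.2% of all genes). Tumors lay below every wildtype array for 17 genes (5.04% of all genes) and above for 1, Cyp21a1 (8.53%). These tumors also served in the comparison with adjacent tissue, in which the same 19 fell and the same 2 rose. Of the enterocyte markers 13 of 14 fell against wildtype too, where 4.48% of all genes fell. So did 4 of 17 receptors (1 rose) and 8 of 21 other phase I enzymes.

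Log2 changes against wildtype were -4.22 ± 0.39 (SE), adjusted p = 9.32e-05 for Cyp3a11, -3.76 ± 0.67 (SE), adjusted p = 0.00261 for Cyp2b10 and -2.18 ± 0.31 (SE), adjusted p = 7.79e-04 for Cyp2c66. They were -3.14 for Cyp2c55, -3.03 for Cyp2c29, -2.72 for Cyp3a25, -2.14 for Cyp2d22, -2.08 for Cyp4b1, -1.74 for Cyp4f14, -1.73 for Cyp1a1 and -1.27 for Cyp2c68, all called. Cyp20a1 rose by 1.16 ± 0.31 (SE), adjusted p = 0.022, and Cyp21a1 by 0.57 ± 0.12 (SE), adjusted p = 0.00866. Cyp51 (1.08 ± 0.35 (SE), adjusted p = 0.0533) and Cyp27a1 (-0.44 ± 0.40 (SE), adjusted p = 0.553) did not pass.

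Wildtype replicate 1 weighed on these values. Its Cyp2b10 signal was 9.19 against a mean of 12.91 in the other 2 wildtype arrays. The same contrast was 9.68 against 12.63 for Cyp3a25, 9.10 against 11.17 for Cyp4b1, 8.50 against 10.24 for Cyp27a1, 9.34 against 7.74 for Cyp20a1 and 9.72 against 8.23 for Cyp51. It was the lowest of the 8 non-tumor arrays for 17 of the 32 genes that fell against adjacent tissue. Those 32 were picked with adjacent arrays high, which favours a wildtype array as lowest, and the share of all genes was not counted. Cyp3a11 (12.51 against 12.83) and Cyp2c66 (12.67 against 12.76) differed less in wildtype replicate 1. Without it 29 genes passed, 26 lower and 3 higher (22.7% of all genes passed), the Cyp2b10 change was -5.004 and Cyp51 passed at 1.58 (adjusted p = 0.00287). Leaving out wildtype replicate 2 left 13 calls (4.71% of all genes) and replicate 3 left 12 (5.47%), against 14.1% of all genes with all 3 arrays. Cyp3a25 and Cyp20a1 were then lost in either case (adjusted p = 0.0753 and 0.157 without replicate 2, 0.0613 and 0.151 without replicate 3), and Cyp1a1 without replicate 3 (adjusted p = 0.0655). Cyp2c68 lost its call without any 1 of adjacent replicates 1, 2 and 3, tumor replicates 3, 4, 5 and 6, or wildtype replicates 2 and 3, at adjusted p from 0.0514 to 0.217.

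Between adjacent null tissue and wildtype duodenum 0 of 85 P450 genes and 0 of 19938 genes passed in limma (0% of genes). At an unadjusted p below 0.05 there were 1 P450 gene and 559 genes, and with array weights 9 of 85 P450 genes passed (1 higher, 8 lower), beside 8.48% of all genes. Adjacent arrays lay wholly below wildtype for Cyp2c37 (1.17% of all genes) and above for Cyp4f16 (0.948%). The median log2 difference of the 85 genes was 0.0019, against -0.0092 over all genes. Cyp3a11 differed by -0.10 ± 0.40 (SE), Cyp2c66 by 0.03 ± 0.32 and Cyp2b10 by 1.29 ± 0.69. These errors bound what 3 against 5 arrays could resolve, and the wildtype values of Cyp2b10 include the low replicate 1.

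Mice were also compared by the first letter of their ID. Against adjacent tissue 18 P450 genes passed within letter F (2 adjacent arrays), where 8.62% of all genes passed, and 36 within letter B (3 adjacent arrays), where 28.6% did. Calls were thus fewer over the whole array in letter F. The change itself differed between letters for 2 P450 genes, Cyp2d22 and Cyp2u1, by an interaction term (0.823% of all genes). Both adjacent arrays of letter F are ones with acinar transcripts, so letter and acinar signal cannot be told apart there. Among the 8 non-tumor arrays, the 4 with acinar transcripts lay wholly below the 4 without for 10 P450 genes, where 7.61% of all genes did so. These were Cyp1b1, Cyp27a1, Cyp2c23, Cyp2c38, Cyp2d22, Cyp2u1, Cyp3a25, Cyp4f13, Cyp4f14 and Cyp4f37. Cyp39a1 alone lay above, at 9.39 ± 0.996 (SD, n = 4) against 7.90 ± 0.31 (n = 4), where 2.68% of all genes did. Without the acinar arrays 36 P450 genes passed in tumor against adjacent tissue (30.2% of all genes), and with only these beside the tumors 22 passed (10.9% of all genes). The tumor-minus-adjacent changes of Cyp3a11, Cyp2b10 and Cyp2c66 passed within either letter and with or without the acinar arrays, at adjusted p no higher than 0.0114 in any setting run for that comparison. Against wildtype, letter F held a single wildtype array, replicate 1, so only log2 changes are given there. They were -3.46 for Cyp3a11, -1.17 for Cyp2b10 and -1.58 for Cyp2c66. With only the acinar arrays beside the tumors, Cyp2b10 did not pass against wildtype (adjusted p = 0.0553).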

How the data were processed

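The deposited log2 signals, made by the authors with Affymetrix Expression Console 1.1 against the mm9 build per the submitters' processing notes, were read for 35556 features on 14 arrays. For background correction and normalization, no method is given in the sources used here. Features with a single symbol were kept, the brightest one a gene, which gave 19938 genes; no filter on dim genes was set. Group means were fitted to all 14 arrays with limma 3.58.1 in R 4.3.3, with the mouse as a random block (correlation 0.334) because 5 mice gave both tumor and adjacent tissue. Deviations from group means correlated in these 5 mice at 0.251, 0.221, 0.289, -0.0299 and 0.395. Tests were two-sided with Benjamini-Hochberg adjustment over all genes, and the fit was tested on simulated data.

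Members, gene lists and the naming rule were chosen with earlier results of these data known. The rule names Cyp3a11, Cyp2b10, Cyp2c66, the members with the largest called changes, the member with the largest change in each role, and up to 5 genes of each pathway list. Ahr, Ahrr, Rarg, Hnf4a and Alas1 were added after their values were seen, as were the neighbour pair, the interaction with ID letter and the sites other than GCGTG and the AGTTCA pairs. Promoters are from RefSeq (GRCm38.p6, 64 of 85 members matched by identifier), which was otherwise used for names and gene order. Alternatives covered scaling, dim-gene filters, the feature taken for a gene, the block, array weights, the variance model, ID letter, acinar arrays and leaving out each array. Animals are separate mice within a group.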

Additional observations from a re-analysis of the deposited data

Results flagged for a closer look

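In groups of 5 or 6 arrays, 3 of 36 checks on the named P450 genes found an array far from the others, where chance gives about 1 in 20. Cyp3a11 read 12.84 in adjacent replicate 4, with the nearest adjacent array at 12.51. Cyp2c66 read 13.55 in adjacent replicate 2, with the nearest at 12.69. Cyp26c1 read 7.04 in adjacent replicate 5, with the nearest at 6.66.

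The tumor-minus-adjacent change differed between mice of ID letters F and B for 2 of the 85 P450 genes, by an interaction term in limma over the Lrig1-null arrays (0.823% of all genes passed, 164 of 19938). For Cyp2d22 the mean change was -1.85 in 2 letter F mice and -3.17 in 3 letter B mice, an interaction of 1.32 ± 0.26 (SE) with an adjusted p of 0.0481. For Cyp2u1 the mean changes were -0.49 and -2.06, an interaction of 1.53 ± 0.29 with an adjusted p of 0.0382. Both genes are among those that read lower in normal tissue that carried acinar transcripts, which includes both letter F adjacent arrays.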

How the results depend on the processing

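No called result of the named P450 genes changed direction under any alternative. For the other members and the pathway lists only counts were compared, not the direction of each gene. Uncalled estimates of the named P450 genes changed sign in 1 of 514 values against adjacent tissue (Cyp27b1), in 12 of 496 for tumor against wildtype (Cyp26c1, Cyp27a1 and Cyp27b1) and in 36 of 496 for adjacent against wildtype (12 genes). In tumor against adjacent tissue 36 P450 genes passed; counts stayed within 1.5 times of this except for genes at or above the median signal, where fewer members were tested (21), letter F mice (18) and acinar non-tumor arrays alone (22). For the pathway lists, with 36 genes passing, the latter 2 settings gave 12 and 17. Against wildtype the 21 P450 and 16 pathway genes became 8 and 5 with acinar non-tumor arrays alone, and 55 and 42 with array weights. Letter B gave 29 pathway genes. Within letter F the only wildtype array was replicate 1, so no count is given. Against wildtype, adjacent tissue gave 9 P450 and 1 pathway gene with array weights, and 0 otherwise; with array weights 47.8% of all genes passed for tumor and 8.48% for adjacent tissue. The cause of these shifts was not tested. Leaving out 1 array at a time gave 30 to 38 P450 and 34 to 39 pathway genes in tumor against adjacent tissue, 12 to 29 and 6 to 27 against wildtype, and 0 and 0 for adjacent against wildtype.

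With no replicate block 32 P450 genes passed against adjacent tissue and 22 against wildtype, and with the mouse as a fixed replicate block in 5 mice 34 passed, 32 of them among the 36.

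Of the named P450 genes against adjacent tissue, leaving out 1 array changed no call. Other settings ended 8 of 262, all in letter F or acinar arrays alone (Cyp51, Cyp21a1, Cyp2w1, Cyp1a1 and Cyp27a1), and array weights added Cyp27b1. Against wildtype 37 calls were lost and 13 gained, counting letter F, where the only wildtype array was replicate 1. Quantile scaling moved the median change of all genes from 0.0426 to -0.001 and centring to -0.0341. Signals near the dim end have no detection call, so a small change there cannot be told from background.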
